A study of Caenorhabditis elegans with 2 samples.

Results

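The cytosolic ribosomal protein genes were taken as the nuclear protein-coding genes of Caenorhabditis elegans whose name in Ensembl release 115 of the WBcel235 annotation begins with rpl- or rps-. There were 78 such genes among 19973 nuclear protein-coding genes. By name, 47 rpl- genes belong to the large ribosomal subunit and 31 rps- genes to the small subunit. Whether each protein is part of the mature ribosome was not checked. The names alone decided which genes belong, and 0 pseudogenes bore such a name. The set itself was chosen with earlier results of these data known. The data came from chromatin immunoprecipitation followed by sequencing (ChIP-seq) of NHR-232, a nuclear hormone receptor, which was recovered through its tag with an anti-GFP antibody. All samples were whole late embryos of hermaphrodites of the strain OP489 with the genotype unc-119(tm4063) III; wgIs489, whose line stably expresses NHR-232 with GFP and FLAG fused to its C-terminus, taken 5 hours after synchronization by bleaching. The 2 samples, biological replicates 1 and 2, formed 1 group with no second genotype, time or treatment, and the control experiment named in the labels was not analysed here. The labels give neither the promoter that drives the transgene nor the cells that express it, and a signal from a whole embryo averages over all of its cells.

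Ribosomal proteins assemble with ribosomal RNA in the nucleolus into the subunits that carry out protein synthesis, and their genes are among the most highly transcribed in growing cells. Introns of ribosomal protein genes often encode small nucleolar RNAs (snoRNAs), the guides that direct chemical modification of ribosomal RNA. Nuclear hormone receptors are DNA-binding transcription factors with a ligand-binding domain, and nematodes have many more of them than other animals.

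For each gene, the summits of ChIP regions were collected from 1000 bp upstream of its annotated 5′ end to its 3′ end, which is called the gene window here, in 4 of the authors' region lists. The strictest, called the IDR list after the irreproducible discovery rate procedure that made it, held 519 regions, the pooled list of candidates held 21094, and the lists of replicates 1 and 2 held 20530 and 22891. The IDR regions were the 519 of highest signal in the pooled list, and their lowest signal was 89.4. The signal is the authors' value for a region, was higher in the pooled list than in those of single replicates, and ranks regions within 1 list. Sequencing depth is unknown, and the 95% Wilson intervals given with shares cover counting error only.

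Most ribosomal protein genes had a candidate region, and few had a region in the IDR list. An IDR summit lay in the gene windows of 6 of the 78 ribosomal protein genes (7.69%, interval 3.57 to 15.8), where all protein-coding genes had a share of 2.25%. These 6 were rps-28, rps-24, rpl-3, rps-1, rpl-24.2 and rps-19, and each summit lay upstream of the 5′ end. In a promoter window of the same length for every gene, with 1000 bp before and 200 bp after the 5′ end, the ribosomal protein genes again had 6 (7.69%) and all genes had 1.34%. By the subunit in the name, the share was 4 of 31 rps- genes (12.9%, interval 5.13 to 28.9) and 2 of 47 rpl- genes (4.26%, interval 1.17 to 14.2), and these intervals overlap. Pooled candidates lay in the gene windows of 62 of the 78 ribosomal protein genes (79.5%, interval 69.2 to 87.0) and in 48.5% of those of all genes. In the promoter window, 55 ribosomal protein genes had one (70.5%, interval 59.6 to 79.5), against 27.2% of all genes. The gene windows of the ribosomal protein genes were shorter, with a median of 1753.5 bp against 3027 bp for all genes. The counts in the IDR list depend on the authors' threshold, since the strongest 259 IDR regions included a summit at 1 of the 78 genes, rps-28. The share of all genes with those 259 regions is not given here.

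**Figure D1:**
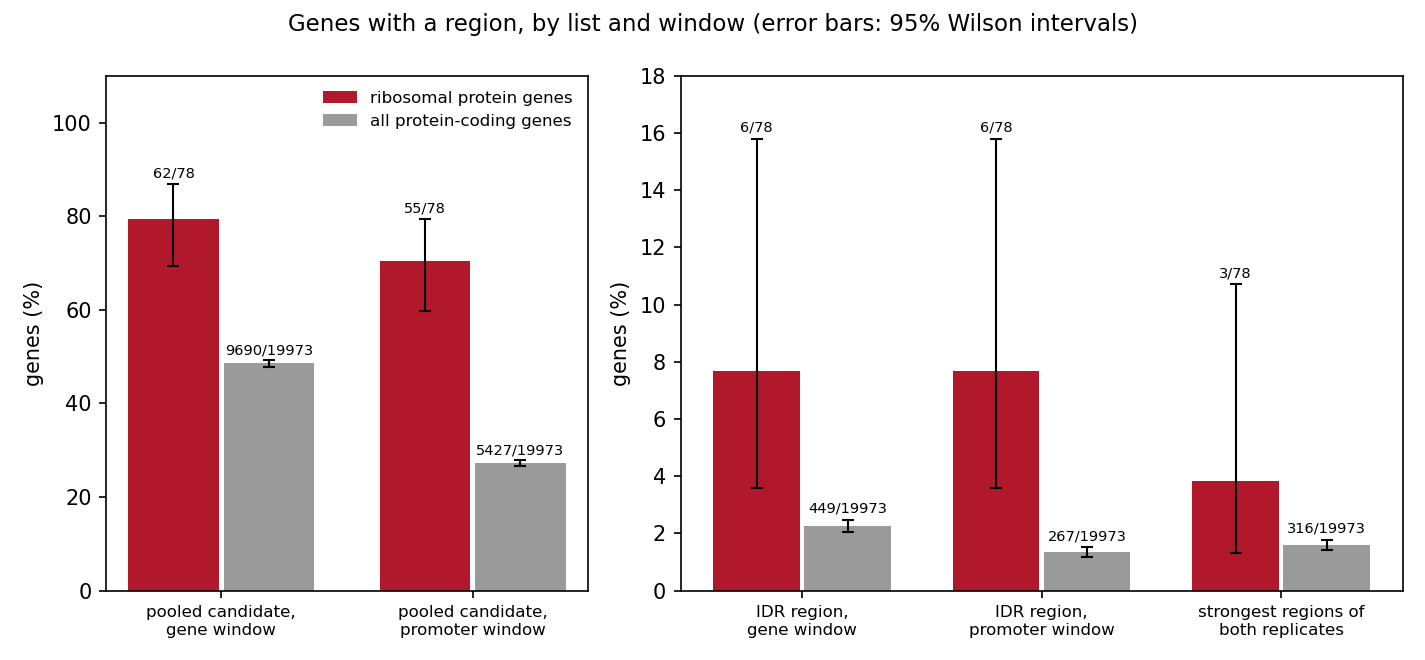
Share of genes (%) with a region, for ribosomal protein genes (red) and all nuclear protein-coding genes (grey), by list and window. Error bars are 95% Wilson intervals and the fractions give genes with a region over all genes, and in all 5 pairs the ribosomal protein genes have the higher share, from 79.5% against 48.5% for pooled candidates in the gene window to 3.85% against 1.58% for the strongest regions of both replicates.

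Taken separately, the replicates gave fewer ribosomal protein genes than the IDR list. Among the 519 strongest regions of replicate 1, summits lay at 4 of the 78 genes (5.13%, against 2.12% of all genes), namely rps-28, rps-24, rpl-3 and rps-1. Among the 519 strongest of replicate 2, they lay at 3 (3.85%, against 2.29% of all genes), namely rps-28, rps-24 and rpl-3, which were therefore the 3 genes with such a summit in both replicates (3.85%, interval 1.32 to 10.7, against 1.58% of all genes). The interval in replicate 1 (2.01 to 12.5) and that in replicate 2 (1.32 to 10.7) each include the share of all genes in the same replicate. With replicate 1 left out, the count of genes was thus 3 in place of 6, and with replicate 2 left out it was 4.

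The strongest region of a ribosomal protein gene was that of rps-28, which encodes a small protein of the small subunit near the exit of the mRNA channel. Its pooled signal was 175, rank 183 of the list, and its signals were 62.8 in replicate 1 and 114 in replicate 2. Both replicates placed the summit within 16 bp of the pooled one, 446 bp upstream of the 5′ end in intergenic sequence, and the summit also lay in the gene window of Y41D4B.4. The region covers chrIV:1659010-1659479 of ce11, and the gene (WBGene00004497) lies at chrIV:1659691-1659997 on the plus strand. Among the 6 IDR summits of ribosomal protein genes matched in both replicates, this one differed most between them, by -0.86 on the log2 scale (replicate 1 over replicate 2).

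At rps-24, whose human counterpart is a gene of Diamond-Blackfan anaemia, 2 overlapping IDR regions were listed. Their summits lay 561 and 312 bp upstream, with pooled signals of 133 (rank 266) and 99.4 (rank 419). The replicates did not share the first of them: replicate 1 had signals of 83.4 at 569 bp and 46.2 at 363 bp upstream, while replicate 2 had a single region, with a signal of 56.7 at 311 bp. The regions, chrIV:385091-385560 and chrIV:385340-385809, share 221 bp and lie before the gene at chrIV:385887-386606 on the plus strand (WBGene00004493). Around these summits 92.1% and 83.6% of 50-base words occurred once in the genome, while at the other 96 pairs of a ribosomal protein gene and a pooled summit it was 100%. Whether repeated sequence had a part in the difference between replicates was not tested.

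For rpl-3, whose protein reaches towards the catalytic centre of the large subunit, the replicates placed the summit within 2 bp of the pooled one. Its pooled signal was 119 (rank 313) at 266 bp upstream, and its signals were 50.9 in replicate 1 and 64.6 in replicate 2. The region, chrIII:3867353-3867822, is intergenic and lies before the gene at chrIII:3867854-3869587 on the plus strand (WBGene00004414). A second and weaker candidate lay at the 3′ end of rpl-3, 1605 bp downstream of the 5′ end, with a pooled signal of 44.0.

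At rps-1, which encodes a small-subunit protein beside the mRNA exit, the pooled signal was 109 (rank 362) at 267 bp upstream. Replicate 1 had 2 regions around this summit, with signals of 65.5 at 407 bp and 39.3 at 207 bp upstream, and replicate 2 had its stronger region, with a signal of 48.1, at 239 bp upstream. The pooled summit thus fell between summits of replicate 1. The region, chrIII:4475416-4475885, lies before rps-1 at chrIII:4475918-4476876 on the plus strand (WBGene00004470), shares its upstream sequence with the divergent gene ifet-1, and its summit lay within 200 bp of the noncoding RNA genes F56F3.10 and F56F3.11, which are neither snoRNA nor tRNA genes.

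The sequences around these summits are printed with the words that they share. That of rpl-35, the strongest ribosomal protein gene outside the IDR list, is added. The windows of rpl-24.2 and rps-19, which also have an IDR summit, were not among those printed and compared. How many words such windows would share by chance was not estimated. Each is 101 bases of the RefSeq WBcel235 sequence centred on the pooled summit, on the strand of the gene, which is the plus strand in each case. Capitals mark words of 8 letters that occur, on either strand, in the windows of at least 2 of the genes shown.
rps-28, chrIV:1659195-1659295: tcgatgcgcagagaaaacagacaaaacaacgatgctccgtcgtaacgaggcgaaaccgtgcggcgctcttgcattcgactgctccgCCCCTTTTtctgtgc
rps-24, chrIV:385276-385376: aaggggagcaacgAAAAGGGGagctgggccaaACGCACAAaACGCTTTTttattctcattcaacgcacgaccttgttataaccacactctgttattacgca
rps-24, chrIV:385525-385625: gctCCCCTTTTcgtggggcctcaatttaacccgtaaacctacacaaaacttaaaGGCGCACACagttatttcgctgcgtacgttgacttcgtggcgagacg
rpl-3, chrIII:3867538-3867638: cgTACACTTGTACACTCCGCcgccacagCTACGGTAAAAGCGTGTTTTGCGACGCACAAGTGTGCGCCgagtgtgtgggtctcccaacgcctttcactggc
rps-1, chrIII:4475601-4475701: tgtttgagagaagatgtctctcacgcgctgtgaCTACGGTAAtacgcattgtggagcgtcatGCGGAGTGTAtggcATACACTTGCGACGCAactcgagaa
rpl-35, chrIII:7854640-7854740: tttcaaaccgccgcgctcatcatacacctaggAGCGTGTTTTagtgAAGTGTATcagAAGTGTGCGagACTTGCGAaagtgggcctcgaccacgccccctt

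The windows of rpl-3, rps-1 and rpl-35 held the most shared letters, with 58, 35 and 35 of 101 in capitals, and that of rps-28 had 8. Across these windows 21 words of 8 letters were shared. Not all were more frequent upstream of other ribosomal protein genes than of all genes. Within 500 bp upstream, without the genes that gave it, ACTTGCGA lay at 0 of 76, against 0.831% of all protein-coding genes. AAAACACG lay at 2 of 76 (2.63%), against 4.30%, while ACACTCCG lay at 5 of 76 (6.58%), against 1.34%. The word found upstream of the most other ribosomal protein genes was TACGGTAA (reverse complement TTACCGTA), which is in the windows of rpl-3 and rps-1. It occurred within 500 bp upstream of 13 of the 78 ribosomal protein genes (16.7%), against 2.03% of all protein-coding genes. Without rpl-3 and rps-1, which gave the word, it was 11 of 76 (14.5%). Of its 12 positions upstream of ribosomal protein genes, 6 lay within 50 bp of a pooled summit (50%), against 22 of 352 positions upstream of other genes (6.25%). Those were at rpl-3, rps-1, rpl-1, rpl-20, rps-23 and the sequence shared by rpl-24.1 and rps-10. Without rpl-3 and rps-1 it was 4 of 10 (40.0%, interval 16.8 to 68.7). Also without these genes, it was 2 of 10 in replicate 1, against 7 of 352 at other genes (1.99%), and 3 of 10 in replicate 2, against 19 of 352 (5.40%). Ribosomal protein genes also had a pooled candidate of any kind more widely in the gene window (79.5%, against 48.5% of all genes). The gap was wider in the promoter window (70.5%, against 27.2%), and upstream they had 0.769 pooled summits per kb, against 0.271. The part of these denser candidates in the difference at TACGGTAA was not tested.

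Word length and upstream length were chosen after seeing the data, and the leading word changed with the word length. Among the 41 shared words of 7 letters, the one upstream of the most other ribosomal protein genes was GCGAGAC (reverse complement GTCTCGC), a different word, which came from the windows of rpl-35 and rps-24. It lay upstream of 25 of the 78 ribosomal protein genes (32.1%), against 3.94% of all genes, and of 23 of 76 without those that gave it (30.3%). Of its 24 positions at ribosomal protein genes, 8 lay within 50 bp of a pooled summit (33.3%), of which 2 are the windows that gave the word. Without rpl-35 and rps-24 it was 6 of 22 (27.3%, interval 13.2 to 48.2), against 59 of 699 at other genes (8.44%). The part of the denser upstream candidates in this difference was not tested either. Both words were taken from windows at ChIP summits of ribosomal protein genes and picked for how many of these genes carry them, so their frequencies are a description of chosen words. In the whole IDR list, TACGGTAA lay within 50 bp of 3 of 519 summits (0.578%).

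Of the 6 preset motifs searched on both strands within 50 bp of the 7 IDR summits of ribosomal protein genes, GAGAGA occurred at 2 (28.6%), against 15.8% of all 519 IDR summits. Around pooled summits it went the other way, with 8 of 95 at ribosomal protein genes (8.42%) and 10.1% of all 21094. AGGTCA, a half-site of many nuclear receptors, occurred at 0 of the 7 and at 3.47% of all IDR summits. GTTCGA, part of the internal promoter of tRNA genes, occurred at 0 of the 7 and at 19.1% of all. The motif ACCACT occurred at 0 of the 7 and at 21.8% of all, the motif AGTGCA at 0 and 5.01%, and the motif TTTCAG at 0 and 3.47%. The interval of 0 of 7 reaches 35.4%, above each of these shares of all IDR summits. Around the 95 pooled summits AGGTCA had the higher share at ribosomal protein genes (4.21%, against 2.96% of all 21094). So had GTTCGA (5.26%, against 4.15%), ACCACT (5.26%, against 4.17%) and TTTCAG (17.9%, against 14.0%), while AGTGCA had the lower (2.11%, against 3.49%). These counts describe letters in a short window.

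The remaining IDR regions of ribosomal protein genes lay just inside the authors' threshold. At rpl-24.2 (WBGene00004437, chrI:9669415-9670098, plus strand) the pooled signal was 90.3 (rank 510) at 166 bp upstream, with 40.9 in replicate 1 and 48.9 in replicate 2. This summit lay in an intron of C03D6.1. At rps-19 (WBGene00004488, chrI:9625049-9625796, minus strand), whose human counterpart is also a gene of Diamond-Blackfan anaemia, the pooled signal was 89.9 (rank 513) at 225 bp upstream, with 43.8 in replicate 1 and 45 in replicate 2. The nearest 5′ end to that summit was the one of the divergent gene hsr-9, so rps-19 leaves the count when a summit is given to its nearest gene alone. In each replicate these 2 genes ranked below the 519 strongest regions, between 532 and 710.

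**Figure D2:**
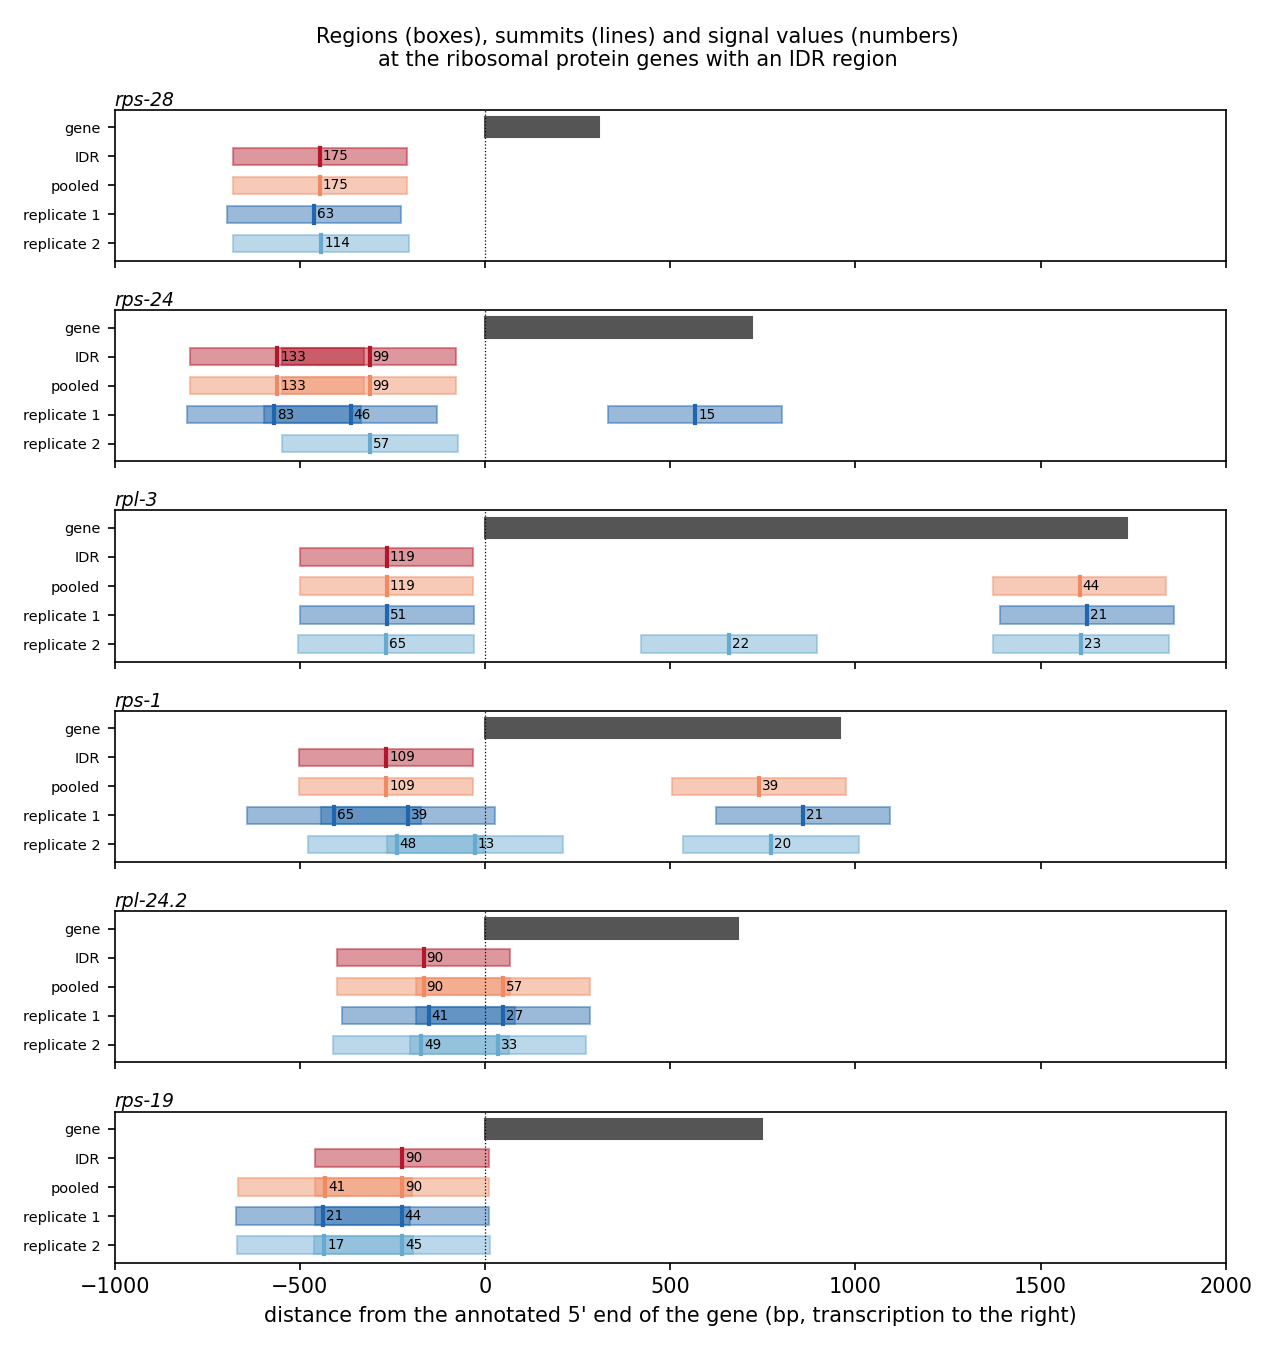
Regions at the 6 ribosomal protein genes with an IDR region, by distance from the annotated 5′ end (bp). Boxes are regions, lines are summits and numbers are the authors' signal values in the IDR, pooled and replicate lists, and every IDR summit lies between 561 and 166 bp upstream, while upstream of rps-24 the replicates differ in the number of regions and upstream of rps-1 in the places of their summits.

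Just outside the threshold was rpl-35, whose protein lies at the exit of the peptide tunnel, with a pooled signal of 74.2 (rank 810) at 444 bp upstream. Its signal at that place was 25.3 in replicate 1 and 48.3 in replicate 2, and the strongest region of replicate 1, with 29.3, was within the gene instead. Next came the divergent pair rpl-24.1 and rps-10, whose 5′ ends are 610 bp apart and which share a summit with a pooled signal of 69.6, and 29.8 in replicate 1 and 38.7 in replicate 2. The pooled signals of the genes that followed were 67.5 for rpl-7, 65.2 for rpl-20, 58.6 for rps-27, 58.4 for rpl-12, 57.6 for rpl-7A, 55.7 for rpl-14 and 54.3 for rpl-41.2. Of these, rps-27 and rpl-12 had their summit within the gene, at 667 and 82 bp, and the others upstream. In replicate 1 the strongest signal of a ribosomal protein gene without an IDR region was 38.4, at rpl-7, below all 6 genes with one (40.9 to 83.4). In replicate 2 that bound did not hold, since rpl-35 had 48.3 and rps-19 and rps-1 had 45 and 48.1.

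**Figure D3:**
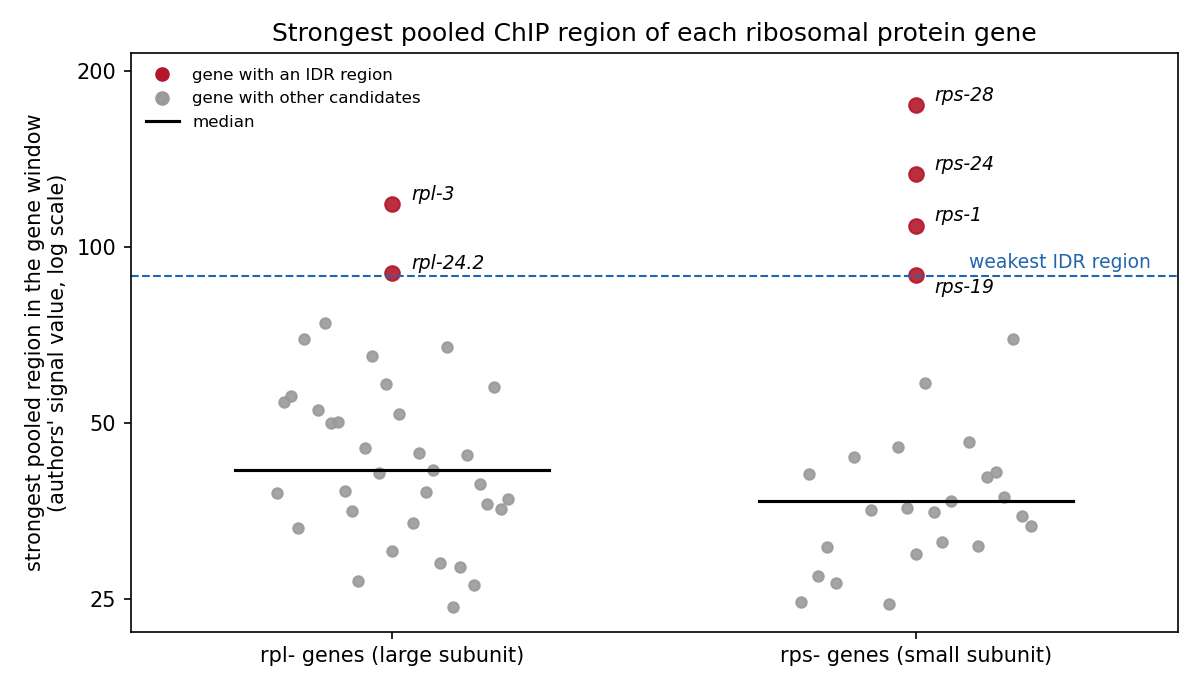
Strongest pooled region in the gene window of each of the 62 ribosomal protein genes that have one, as the authors' signal value on a log scale. Points are genes, red where the gene has an IDR region, black lines are medians (41.7 for rpl- genes and 36.8 for rps- genes) and the dashed line is the weakest IDR region at 89.4.

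Over the 62 ribosomal protein genes with a pooled candidate, the strongest signal per gene had a median of 39.9 (quartiles 33.5 and 53.9), against 35.9 (quartiles 29.4 and 46.7) over the 9690 protein-coding genes with one. As a rank in the list, the median was at 26.3% for ribosomal protein genes and 36.8% for all genes, where a lower percentage is stronger. The 35 rpl- genes had a median signal of 41.7 and the 27 rps- genes one of 36.8, although the highest single values were those of rps- genes. The median ranks in the single lists were 24.2% against 37.5% in replicate 1 and 21.0% against 36.9% in replicate 2. Only genes that had a candidate enter these medians, so they say nothing of the other 16.

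Candidates of single replicates covered 57 ribosomal protein genes in replicate 1 (73.1%, against 48.3% of all genes) and 65 in replicate 2 (83.3%, against 51.7%). A candidate in all of the pooled, replicate 1 and replicate 2 lists was found at 50 (64.1%, against 34.1% of all genes). Of the 52 ribosomal protein genes with a candidate in both replicate lists, 33 had the higher signal in replicate 2 and 19 in replicate 1. The same count over all genes is not given and the scales of the 2 lists may differ, so it is not read as a trait of these genes. For the 6 IDR summits of ribosomal protein genes that had a match within 100 bp in both replicates, the log2 ratio of replicate 1 to replicate 2 ran from -0.86 to -0.04. All 6 were below 0, and 5 of the 6 were below the median of all 503 matched IDR summits, -0.08 (quartiles -0.32 and 0.14). The share of all 503 below 0 is not given here. Relative to the median of all 503, that of the 6 was -0.21 (SD of the 6 summits 0.27). This direction depends on the matching. The summit of rps-24 at 561 bp upstream had no match in replicate 2 and is left out, and at rps-1 the weaker region of replicate 1 (39.3) was matched. By the strongest region in the gene window, replicate 1 was higher at rps-24 (83.4 against 56.7) and at rps-1 (65.5 against 48.1).

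**Figure D4:**
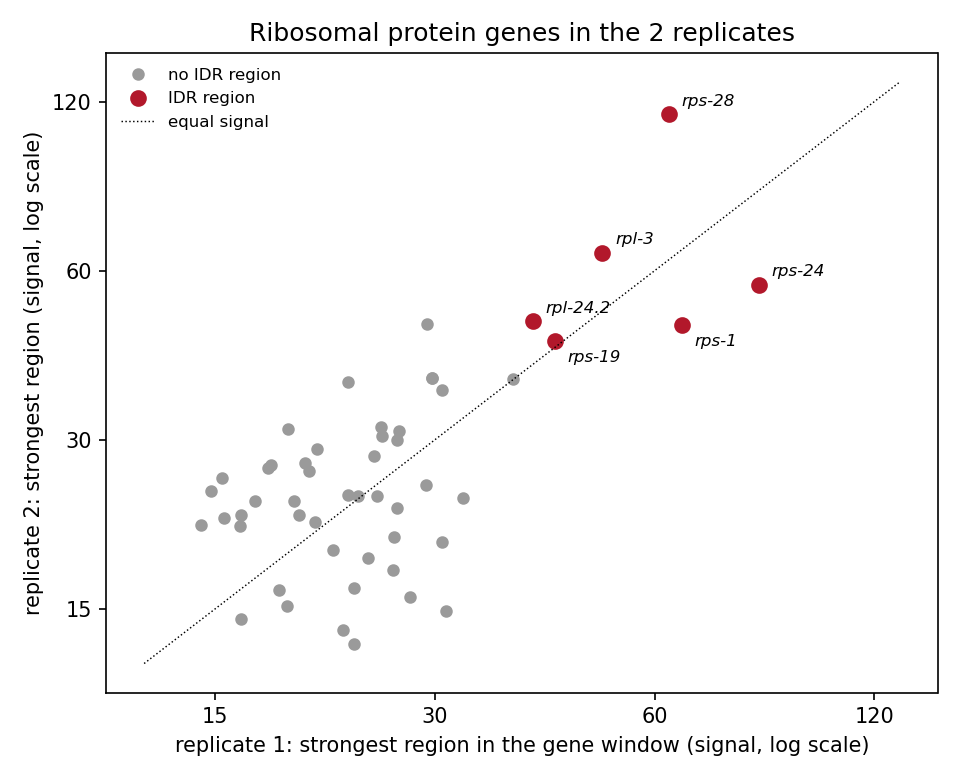
Strongest signal of each of the 52 ribosomal protein genes with a candidate in both replicates, replicate 1 on the horizontal and replicate 2 on the vertical axis, both on log scales. Red points are genes with an IDR region, the dotted line is equal signal, rps-28 lies farthest above it at 62.8 and 114, and rps-24 and rps-1 lie below it.

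No IDR summit of a ribosomal protein gene lay near a snoRNA or tRNA gene, while many IDR summits elsewhere did. Of the 7 IDR summits in their windows, 0 were within 200 bp of such a gene (interval up to 35.4%), against 169 of 386 IDR summits in the windows of any protein-coding gene (43.8%, interval 38.9 to 48.8). The distances from the 7 summits to the nearest such gene ran from 4693 bp at rps-1 to 85662 bp at rpl-3. When summits at these small RNA genes were left out everywhere, the ribosomal protein genes kept their 6, against 1.38% of all protein-coding genes.

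Within the ribosomal protein genes, 13 host 19 snoRNA genes and 0 host a tRNA gene. None of the 19 had an IDR summit within 200 bp (0%, interval up to 16.8%), against 52 of all 346 snoRNA genes (15%, interval 11.6 to 19.2), and these intervals overlap. Pooled candidates lay near 6 of the 19 (31.6%, interval 15.4 to 54.0) and 136 of the 346 (39.3%). These 6 were in rps-12, which hosts 2 of them, and in rps-13, rpl-4, rps-29 and rpl-24.1. The highest of their pooled signals was 43.7, near the snoRNA C16A3.11 in an intron of rps-13, with 18.9 in replicate 1 and 31.4 in replicate 2, and the next was 41.7, near B0041.9 in rpl-4. The strongest pooled candidates of the hosts rpl-24.1 (69.6), rpl-7 (67.5), rpl-7A (57.6), rpl-15 (52.7) and rps-4 (46.5) were more than 200 bp from their snoRNAs, as was that of rps-23 (35.6). The remaining hosts with a pooled candidate had their strongest signal at 34.7 (rps-12), 33.4 (rps-29), 28.8 (rpl-26) and 26.5 (rpl-2), and rpl-6, with 3 snoRNAs, had no pooled candidate. Beside these, rps-10 and rps-26 had a snoRNA gene in the window but outside the gene, and the pooled summit of rps-26 (37.4) lay within 200 bp of F39B2.14.

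Candidates were denser at ribosomal protein genes both upstream and within the gene, by nearly the same factor. Upstream there were 0.769 pooled summits per kb at ribosomal protein genes and 0.271 at all protein-coding genes, and within the gene 0.613 and 0.217. The ratio of the upstream density to that within the gene was 1.25 in both groups when rounded. Of 98 pairs of a ribosomal protein gene and a pooled summit, which come from 95 distinct summits, 60 were upstream of the 5′ end (61.2%, interval 51.3 to 70.3), against 28.0% for all genes. The median gene length was 753.5 bp for ribosomal protein genes and 2027 bp for all genes. The part of gene length in the larger upstream share was not tested. The upstream summits had a median of -342 bp for ribosomal protein genes and -396 bp for all genes. Of the 98, 28 (28.6%) had an offset from -500 to -251 bp, against 7.50% for all genes. Those shares are of all summits, with those within the gene included, as are the shares upstream in each list. Of the upstream summits alone it was 28 of 60, against 1454 of 5422 for all genes. In the IDR list 7 of 7 were upstream, at a median of -267 bp, against 268 of 474 pairs (56.5%) at a median of -297.5 bp for all genes. Of the 7, 6 were intergenic, and of the 98 pooled pairs 48 were intergenic, 38 were in the gene itself (28 in an exon and 10 in an intron) and 12 in a neighbouring gene.

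**Figure D5:**
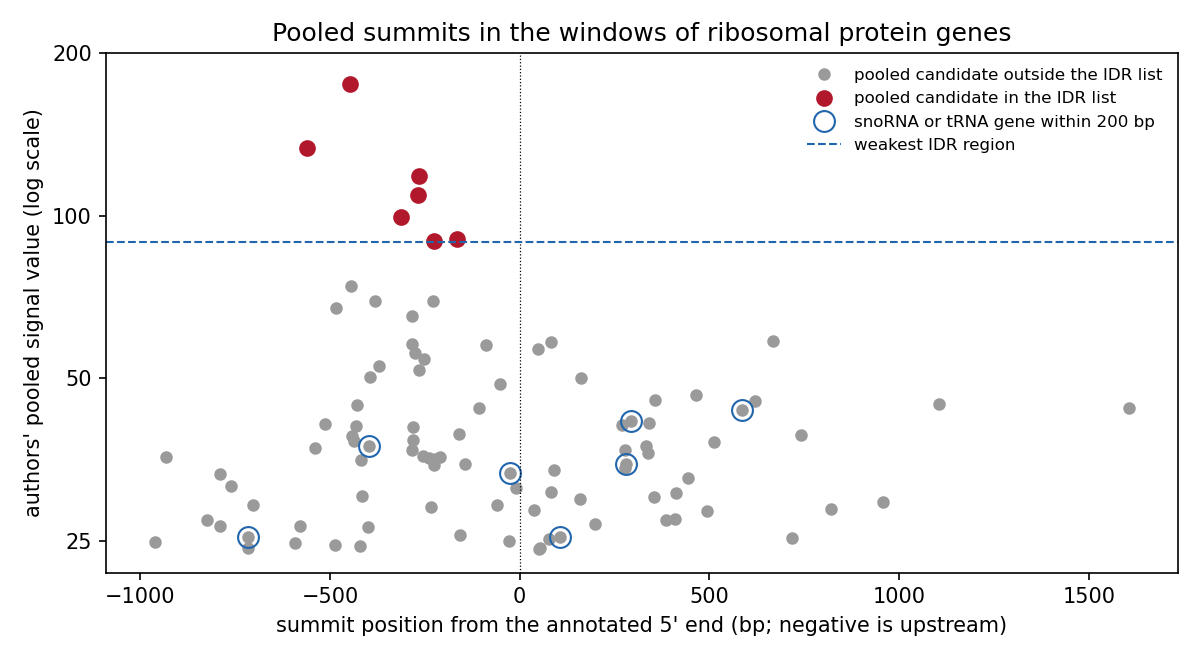
Signal (log scale) and position of the 98 pooled summits in the windows of ribosomal protein genes, in bp from the annotated 5′ end with negative values upstream. Red points are in the IDR list, blue rings mark a snoRNA or tRNA gene within 200 bp and the dashed line is the weakest IDR region, and the red points lie from 561 to 166 bp upstream with no ring.

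The upstream neighbours of the genes varied. A neighbour was the nearest protein-coding gene lying wholly upstream of the 5′ end. Genes that overlap the 5′ end were passed over, such as C03D6.1 at rpl-24.2, which was counted by its same-strand neighbour cel-1. The nearest gene upstream was divergent for 53 of the 78 ribosomal protein genes, of which 4 had an IDR summit (7.55%, interval 2.97 to 17.9), against 2.98% of all genes with such a neighbour. It was on the same strand for 25, of which 2 had one (8%, interval 2.22 to 25), against 1.64% of all such genes. Of the 8 ribosomal protein genes with a same-strand neighbour within 500 bp, 0 had an IDR summit (interval up to 32.4%), against 1.58% of all such genes, and 5 had a pooled candidate (62.5%, interval 30.6 to 86.3), against 48.0%. By chromosome, IDR summits lay at 2 of 23 ribosomal protein genes on I, against 3.09% of all its genes, at 2 of 18 on III, against 3.48%, and at 2 of 17 on IV, against 1.68%. They lay at 0 of 10 on II, against 1.91%, at 0 of 8 on V, against 1.40%, and at 0 of 2 on X, against 2.82%. With so few ribosomal protein genes, the intervals of the counts of 0 include the share of all genes in each case.

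Among other genes of protein synthesis, the translation factors had the share nearest to that of the ribosomal protein genes. Of 38 genes for translation factors, 3 had an IDR summit (7.89%, interval 2.72 to 20.8), all of them subunits of initiation factor eIF3, which binds the small subunit, with signals of 128 for eif-3.C, 100.3 for eif-3.D and 94.9 for eif-3.B. Those summits lay 241, 290 and 297 bp upstream, within the range of those at ribosomal protein genes. That range is not particular to these genes, since upstream IDR summits of all protein-coding genes had quartiles of -547 and -163 bp. Pooled candidates lay at 30 of the 38 (78.9%), with a median strongest signal of 49.8. The genes of mitochondrial ribosomal proteins had 2 of 70 (2.86%), mrps-28, whose summit lay near a snoRNA gene, and mrps-34, at 98 bp upstream with a signal of 121. The aminoacyl-tRNA synthetase genes had 2 of 31 (6.45%), ears-2 with a signal of 269 at 36 bp upstream and fars-1, whose summit lay near a snoRNA or tRNA gene. Of the 6 genes for stalk, ubiquitin-fused and ribosome-bound proteins 0 had an IDR summit (interval up to 39%), and of the 10 for nucleolar and snoRNP proteins 0 had one (interval up to 27.8%), while all of them had a pooled candidate, with median signals of 36.8 and 36.4. All these intervals overlap with that of the ribosomal protein genes.

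No candidate in any of the pooled and replicate lists was found for 8 of the 78 ribosomal protein genes (10.3%, interval 5.29 to 19), against 35.2% of all genes. These were rpl-16, rpl-25.1, rpl-29, rpl-34, rpl-37, rpl-39, rps-9 and rps-30. Of them rpl-39 and rps-30 are divergent neighbours, and rpl-34 carries TACGGTAA 422 bp upstream. A further 8 had a candidate in 1 replicate list or both but none in the pooled list, with signals up to 24.5, at rpl-28 in replicate 2. The others had 1 pooled candidate (30 genes), 2 (28 genes) or 3 (4 genes).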

How the data were processed

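ChIP-seq of tagged NHR-232 was measured in 2 samples, biological replicates 1 and 2 of 1 group. The authors deposited region lists in ce11 and ce10, and the ce11 lists were used. The deposited readme gives each replicate list as made from the replicate's alignment, the pooled list from both alignments, each with 1 further file that it does not describe, and the IDR list from the other lists. Which aligner and caller were run, and how, is not given in the sources used here. Each region has the authors' signal value, the −log10 q value as deposited, and a deposited summit offset in bp, another quantity that gave the summit as start plus offset, 1-based. Nothing was normalised further. Read totals were not used, so depth is unknown and precision is limited to counting error. The labels call the replicates biological and do not say whether they came from separate cultures.

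Summits were assigned to gene windows of the Ensembl release 115 annotation, and sequences were read from the RefSeq WBcel235 genome, which ce11 names. A small RNA gene counted within 200 bp of a summit, and a replicate summit matched within 100 bp. The strongest regions of a replicate were its 519 of highest signal. Shares have 95% Wilson intervals. No test between conditions was possible with 1 group, and no test was made over the genes. The members and lists were chosen with earlier results of these data known. Genes named with values were those with an IDR summit or among the strongest regions of a replicate, the 10 next by pooled signal, those beside the threshold, up to 10 that host or lie near a snoRNA or tRNA gene, those with no candidate, and up to 4 genes with an IDR summit of each related list. The genes at which the shared words lay, and the remaining hosts of snoRNAs, were named after their values were seen. The window assignment was tested on simulated data. Alternatives were other windows, thresholds, distances and the replicates one at a time. Work was done in Python 3.11.15 with pandas 2.3.3, numpy 2.4.6 and scipy 1.17.1, and plots with matplotlib 3.10.9.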

Additional observations from a re-analysis of the deposited data

How the results depend on the processing

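Of 66 alternative values, 13 moved by more than the margin of their kind: 10 counts by more than 1.5 times, and 3 median ranks by more than 2.23 percentage points, the SD of the medians of the 2 replicates. For shares of the 7 IDR summits the margin is their Wilson interval, which is so wide that GAGAGA at 57.1% within 100 bp or 8.42% at pooled summits, and TTTCAG at 28.6% within 100 bp, stay inside it. Within 100 bp the shares of all 519 IDR summits were 32.6% for GAGAGA and 11.6% for TTTCAG. For TTTCAG the ribosomal protein genes thus went from below the share of all within 50 bp to above it within 100 bp. With the strongest 259 IDR regions, 1 ribosomal protein gene had a summit, in the gene window and in the promoter window alike. With 1 replicate left out both counts ran from 3 (without replicate 1) to 4 (without replicate 2). The count in both replicates was 7 with the strongest 1000 regions of each and 0 with 259. Shares of all genes are not given for these other thresholds. The median best rank, 26.3% in the pooled list, was 23.6% with 2000 bp upstream, 29.9% with summits of the nearest 5′ end only, and ran from 21.0% to 24.2% with 1 replicate left out. The share of IDR summits near a snoRNA or tRNA gene was 0% in every alternative except 14.3% (1 of 7, rps-1) with any noncoding RNA gene counted, which was chosen after seeing the data, as were the word settings. The most frequent shared word lay upstream of 25 genes with 7 letters, 5 with 9 and 3 with 10, against 13 with 8. As shares of the 78 ribosomal protein genes these were 32.1%, 6.41%, 3.85% and 16.7%. The shares of all genes, in the same order, were 3.94%, 0.340%, 0.210% and 2.03%. Without the genes that gave the word, it was 3 of 76 with 9 letters and 1 of 76 with 10. TACGGTAA lay upstream of 5 of the 78 genes within 250 bp, 13 within 500 bp and 14 within 1000 bp. Of all 19973 protein-coding genes, it lay upstream of 206, 405 and 701 at these lengths. The causes were not tested. No paired analysis was possible because the 2 replicates form 1 group. Depth is unknown, so a gene without a candidate is one in which no region was listed, not one shown to lack the protein.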
